A study of Mus musculus with 5 samples.

Results

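The MHC class II genes of the mouse kidney were followed across cell types: H2-Aa, H2-Ab1, H2-Eb1, H2-DMa, H2-DMb1, H2-DMb2, H2-Oa, Cd74 and Ciita, 9 genes matched by symbol among the 32285 genes that every library lists. All 9 had UMIs (unique molecular identifiers, each the tag of 1 RNA molecule) in the kept cells, and 21824 genes had a UMI in at least 3 kept cells. Droplet single-cell RNA sequencing (10x Genomics, 3′ end counting) was carried out on kidneys of wild-type C57BL/6 mice, all male and between 8 and 10 weeks old, and the libraries were 1 control, 2 from the acute kidney injury (AKI) phase and 2 from the chronic kidney disease (CKD) phase. AKI mice had received aristolochic acid I (AAI), a plant toxin that injures the proximal tubule, at 3 mg/kg intraperitoneally every 3 days for 2 weeks. CKD mice had received the same course followed by 2 weeks without injections, and the control had received vehicle alone on the injection schedule. The comparison asks which cells hold class II RNA at each phase, and by how much that RNA exceeds the free RNA that enters every droplet.

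MHC class II molecules present peptides from the endosomal route to CD4+ T lymphocytes. H2-Aa and H2-Ab1 encode the chains of the I-A molecule and H2-Eb1 encodes the beta chain of I-E, whose alpha chain C57BL/6 mice do not express. Cd74 encodes the invariant chain, which blocks the peptide groove of new class II molecules and escorts them to endosomes, where H2-DM (H2-DMa with H2-DMb1 or H2-DMb2) exchanges the last invariant chain fragment for peptide and H2-DO (H2-Oa with H2-Ob) restrains H2-DM. Ciita encodes the transactivator without which the classical genes are hardly transcribed. Dendritic cells, B lymphocytes and macrophages express the set constitutively or readily, whereas epithelial and endothelial cells are known to acquire it through interferon gamma, Irf1 and Ciita. Mouse T lymphocytes make little or no class II RNA of their own.

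Of the 9 members, 7 lie together on chromosome 17. In the RefSeq annotation of GRCm38.p6 they run from H2-Oa (chr17:34092379-34095234) through H2-DMa (chr17:34119693-34139101), H2-DMb2 (chr17:34143229-34151553), H2-DMb1 (chr17:34153191-34160229), H2-Ab1 (chr17:34263227-34269418) and H2-Aa (chr17:34282744-34287823) to H2-Eb1 (chr17:34305867-34316674). Ciita lies elsewhere (chr16:10480014-10531064). Class II promoters are known for an X box bound by the RFX complex and a Y box bound by NF-Y, on which Ciita acts without touching DNA itself. The 120 bases before the annotated start are shown for 3 members that were high and low in the same classes (H2-Aa, H2-Eb1 and H2-DMb1) and for H2-Oa, which followed them least. Capitals mark the Y box letters TGATTGG and, in H2-DMb1, an exact match to the X box pattern. Near matches were not sought, so a lack of capitals does not show that an X box is absent.
H2-Aa (chr17:34287824-34287943, minus strand): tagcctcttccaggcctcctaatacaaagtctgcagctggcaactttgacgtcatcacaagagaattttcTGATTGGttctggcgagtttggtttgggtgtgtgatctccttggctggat
H2-Eb1 (chr17:34305747-34305866, plus strand): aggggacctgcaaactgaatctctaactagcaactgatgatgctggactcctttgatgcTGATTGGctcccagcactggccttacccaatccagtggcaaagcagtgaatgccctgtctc
H2-DMb1 (chr17:34153071-34153190, plus strand): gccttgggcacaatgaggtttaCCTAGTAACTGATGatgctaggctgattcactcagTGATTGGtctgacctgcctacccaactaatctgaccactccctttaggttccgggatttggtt
H2-Oa (chr17:34092259-34092378, plus strand): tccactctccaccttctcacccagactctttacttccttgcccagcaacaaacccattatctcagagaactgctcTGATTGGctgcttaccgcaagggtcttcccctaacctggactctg
The RefSeq promoter table held 7 promoters of 6 members, and 5 of these promoters carried TGATTGG on the coding strand within the 250 bases before the start. Its distance from the start was 50 bases in H2-Aa, 61 in H2-Eb1, 63 in H2-DMb1 and 45 in H2-Oa. On either strand the same letters occurred in 7.23% of 32851 mouse promoters, and the X box pattern in 0.831%. A match describes the sequence and does not show that a factor is bound.

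After filtering, 53718 cells remained of 72896 barcodes, 8496 to 16330 per library, with medians of 2838 to 5557 UMIs per cell. The control stood apart, since 38.7% of its barcodes exceeded the mitochondrial limit of 30% against 11.1% to 12.7% in the other libraries. It also shared 111 barcodes with CKD 2, of which 85 were over 20 times shallower in the control, and no other pair of libraries shared more than 50. Clusters were called "-like" from marker genes that excluded the members, and the members were also kept out of the clustering. The classes held 1627 dendritic-like, 668 B lymphocyte-like, 3761 macrophage-like, 3096 endothelial-like, 4041 proximal tubule-like, 5620 distal tubule-like and 22851 T lymphocyte-like cells, and 9695 cells stayed unnamed. The names were given from these marker lists, so marker sums describe the classes and are no separate check of the labels. The 9 proximal tubule markers summed to 53.8 to 84.5 UMIs per 10000 in proximal tubule-like cells, and T lymphocyte-like cells held 0.375 to 3.02 of them. Similarly, the 7 endothelial markers summed to 73.3 to 103 in endothelial-like cells, and the 6 B lymphocyte markers to 23.8 to 35.0 in B lymphocyte-like cells.

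T lymphocyte-like cells served as the measure of free RNA. Cd74 reached 0.914 UMIs per 10000 UMIs in these cells in the control, 3.33 and 3.88 in AKI, and 3.75 and 2.37 in CKD, so the background itself was higher in all 4 AAI libraries than in the control. Across the 8 T lymphocyte-like clusters Cd74 ranged from 0.524 to 3.10 in the control. The range was 2.68 to 7.87 in AKI 1 and 2.67 to 8.20 in AKI 2, and it was 1.77 to 14.1 in CKD 1 and 1.07 to 9.96 in CKD 2. The Foxp3-led regulatory T cluster was highest in 4 libraries and a Cd8b1-led cluster in CKD 1, so single clusters of the reference varied more than the class as a whole. H2-DMa and H2-Oa, at 0.187 to 0.460 and 0.0560 to 0.144 in T lymphocyte-like cells, exceeded their levels in distal tubule-like cells in every library, so these levels are no estimate of the free RNA in tubular droplets. Intervals below are exact 95% Poisson or binomial intervals. They cover counting error only and say nothing of differences between mice.

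By level per UMI, Cd74 was highest in dendritic-like, macrophage-like and B lymphocyte-like cells, and proximal tubule-like cells came next. Endothelial-like and distal tubule-like cells lay near the reference. Over the 5 libraries Cd74 averaged 186 ± 23.5 UMIs per 10000 (SD, n = 5) in dendritic-like, 172 ± 108 in macrophage-like, 108 ± 14.1 in B lymphocyte-like and 17.2 ± 11.9 in proximal tubule-like cells. It averaged 4.15 ± 1.42 in endothelial-like, 2.89 ± 1.37 in NK-like, 2.85 ± 1.23 in T lymphocyte-like and 2.29 ± 2.44 in distal tubule-like cells. The order of the top 2 classes depended on the phase, since macrophage-like cells lay above dendritic-like cells in the control (266 against 154) and in AKI (248 and 239 against 212 and 205) and below them in CKD (48.6 and 60.3 against 175 and 184). The means of the lowest 4 classes lay within their SDs of each other, although endothelial-like cells were above T lymphocyte-like cells in every library. Of the member UMIs in kept cells, macrophage-like cells held 64.0% in the control, 50.2% and 45.4% in AKI and 23.2% and 24.2% in CKD. In the same order of libraries, dendritic-like cells held 20.7%, 19.8%, 20.7%, 33.9% and 45.5%. B lymphocyte-like cells held 5.56%, 1.45%, 0.411%, 1.83% and 2.45%, and proximal tubule-like cells 0.697%, 4.74%, 5.18%, 5.88% and 2.22%. Macrophage-like cells were 7.50% of the cells in the control, 4.33% and 5.83% in AKI, and 10.7% and 4.02% in CKD, while the members made up 6.25%, 5.92%, 5.83%, 1.01% and 1.37% of their UMIs, so in CKD the level within the class was lower.

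**Figure D1:**
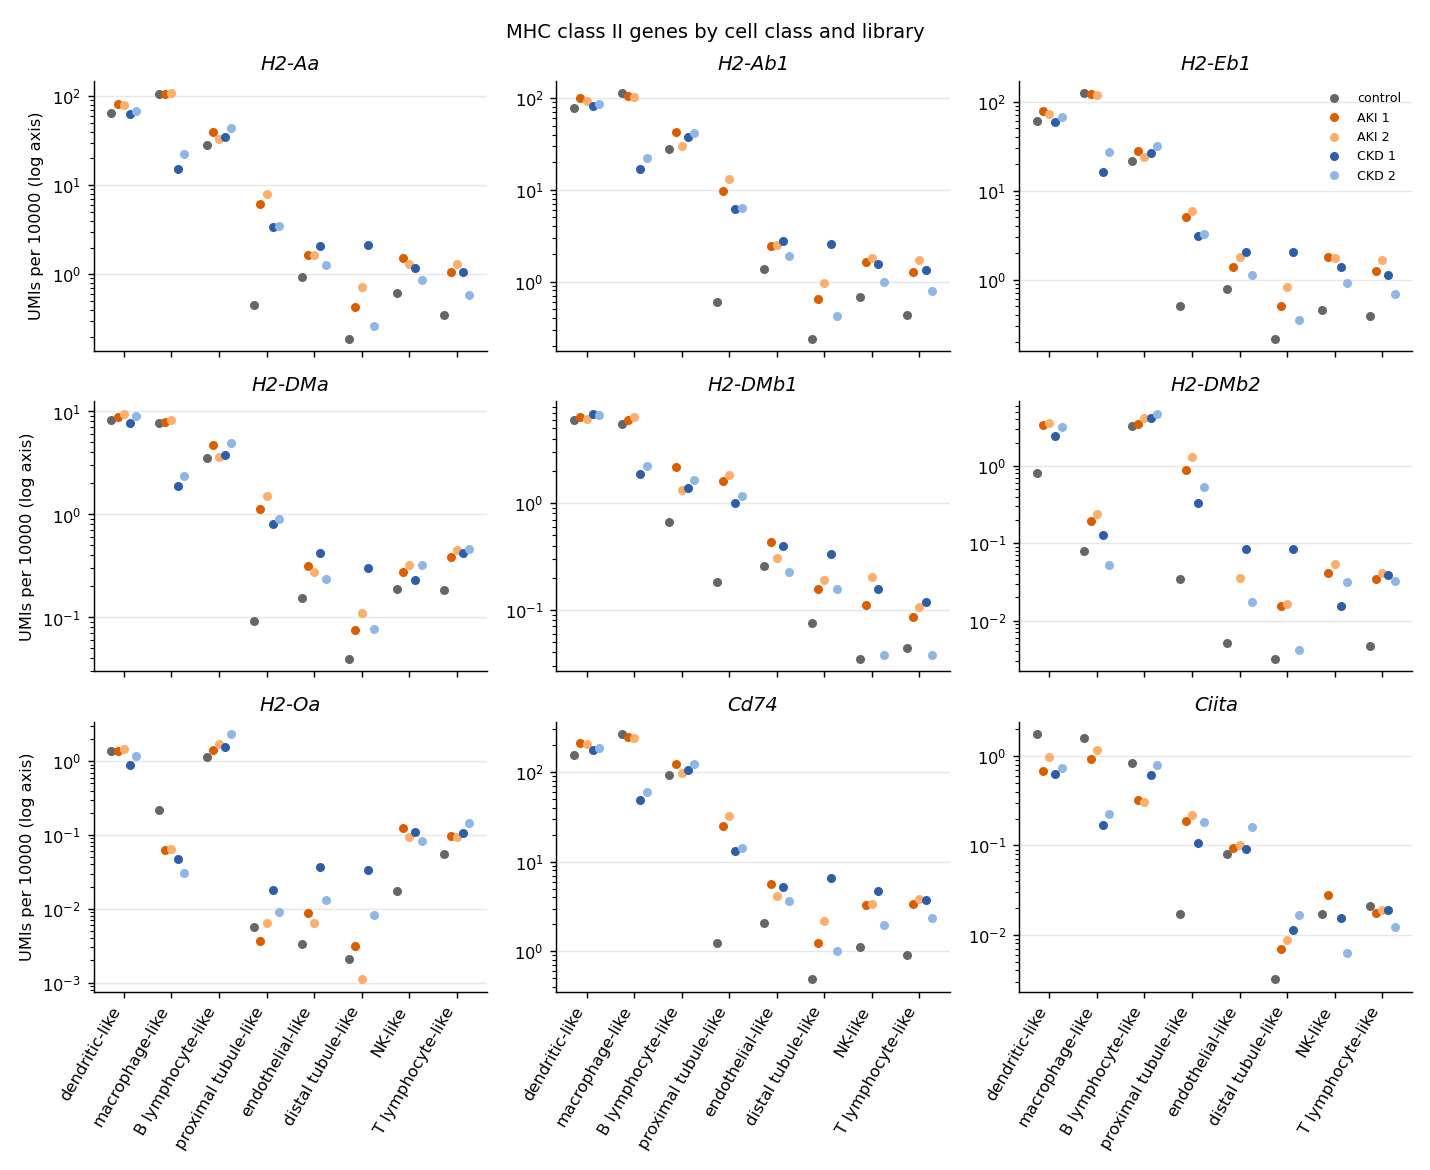
Level of each of the 9 genes (UMIs per 10000 UMIs of the class, log axis) in 8 cell classes, 1 point per library; points at 0 are not drawn. Cd74 spans 154 to 212 in dendritic-like and 92.5 to 124 in B lymphocyte-like cells, whereas H2-DMb2 in dendritic-like cells spans 0.821 to 3.57; macrophage-like cells are lower in both CKD libraries for every gene except H2-DMb2, and proximal tubule-like cells of the 4 AAI libraries lie above those of the control for every gene except H2-Oa.

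Tested against T lymphocyte-like cells of the same library (edgeR quasi-likelihood test with library as a block, Benjamini-Hochberg over all genes), all 9 members were higher in dendritic-like cells, where 55% of all genes tested differed and 29% were higher, and all 9 in B lymphocyte-like cells, where 34.6% differed and 15.9% were higher. In macrophage-like cells 8 members were higher and H2-Oa did not pass (log2 difference −0.37, adjusted p = 0.596, edgeR), against a background of 55% of genes called and 28.1% higher. The log2 difference of Cd74 was 6.42 (SE 0.26) in dendritic-like, 5.95 (0.76) in macrophage-like and 5.59 (0.21) in B lymphocyte-like cells. Both partners of H2-DM were among the members higher in all 3 classes, with H2-DMa 4.79 in dendritic-like, 3.91 in macrophage-like and 3.68 in B lymphocyte-like cells.

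Dendritic-like cells carried the class II set at every phase. Cd74 lay at 154 UMIs per 10000 in the control, 212 and 205 in AKI, and 175 and 184 in CKD, and H2-Ab1 at 77.3, then 99.5 and 94.1, then 82.5 and 85.3. Both AKI libraries were above the control and above both CKD libraries for these genes. H2-DMb2 stood at 0.821 in the control, 3.37 and 3.57 in AKI and 2.40 and 3.21 in CKD, so the lone control was far below all AAI libraries. Ciita went the other way, with 1.76 in the control and 0.636 to 0.966 in the AAI libraries.

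For CKD against AKI, 0 of 9 members passed in dendritic-like cells, and 0% of all 9687 genes did (edgeR quasi-likelihood test). At an unadjusted p under 0.05 there were 724 genes, 6 of them members, and DESeq2 called 34 genes and 0 members. The median member log2 change was −0.31 against 0.01 over all genes. Without CKD 1 or CKD 2, 2 and 6 members passed. For AKI against control, a comparison added after the data were seen in which the lone control is assumed to vary like the other groups, 4 members rose and 0 fell, where 3.78% of all genes were called and 3.03% rose: H2-DMb2 by 2.22 (SE 0.24, adjusted p = 0.00586, edgeR), Cd74 by 0.58 (SE 0.08, adjusted p = 0.0128), H2-Aa by 0.47 and H2-Ab1 by 0.47. Without either AKI library 0 passed, and without either CKD library 6 did.

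The depth and makeup of the dendritic-like class also differed between the libraries. CKD 1 gave 699 of the 1627 cells, at a median of 3065 UMIs against 8984 to 13290.5 in the other libraries. The part of this depth in the levels was not tested. Markers of type 1 dendritic cells, which cross-present antigen, summed to 5.51 UMIs per 10000 in the control and to 0.672 to 2.20 in the other libraries, while those of mature dendritic cells summed to 2.88 in the control and to 9.33 to 15.4 elsewhere. On subclustering, 3 of 9 subclusters could be named, and among the unnamed ones some were led by endothelial, thick limb or T lymphocyte genes. Within type 1 dendritic-like cells Cd74 lay at 169, 195, 188, 169 and 180 UMIs per 10000 in control, AKI 1, AKI 2, CKD 1 and CKD 2. Mature dendritic-like cells of the 4 AAI libraries had 97.9 to 123, below the type 1 cells of the same library in each case. Their H2-DMb1 was 0.296 to 1.00 against 6.98 to 9.03 in type 1 cells, and their Ciita 0.260 to 0.370 against 0.823 to 1.32. With the named subclusters alone, which were type 1 (189 cells), mature (182) and plasmacytoid (71), 0 members passed for AKI against control. None was named type 2, although a cluster named type 2 dendritic gave 1200 of the 1627 cells of the class. The count of 0 therefore leaves out most of the class.

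B lymphocyte-like cells had their own pattern in the H2-DM and H2-DO genes. Cd74 lay at 92.5, 122, 97.4, 107 and 124 UMIs per 10000 in control, AKI 1, AKI 2, CKD 1 and CKD 2, and H2-Aa at 28.5, 39.3, 33.3, 34.9 and 43.8, with overlapping phases. H2-DMb2 was at 3.32 to 4.74 and H2-DMb1 at 0.669 to 2.17. The ratio of H2-DMb2 to H2-DMb1 UMIs was therefore 1.61 to 4.96 in B lymphocyte-like cells, against 0.138 to 0.585 in dendritic-like cells, and the ranges did not overlap. The 2 genes are near copies: 12.4% of the 91-base windows at the 3′ end of H2-DMb1 transcripts also occur in H2-DMb2, so part of the reads could not be assigned. H2-Oa, the H2-DO alpha chain, was 1.15 to 2.34 in B lymphocyte-like, 0.877 to 1.47 in dendritic-like and 0.0303 to 0.215 in macrophage-like cells. Its partner H2-Ob was 2.74 to 4.28 in B lymphocyte-like cells.

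Between CKD and AKI, 0 of 9 members passed in B lymphocyte-like cells, where 0.221% of 3618 genes did (edgeR). Cd74 changed by −0.09 (SE 0.20) and Ciita by 0.99 (SE 0.40, adjusted p = 0.999). Against control, 1 of 9 passed with a background of 1.59%, or 0.754% higher: H2-DMb1 rose by 1.46 (SE 0.36, adjusted p = 0.0312, edgeR) from 0.669 to 2.17 and 1.34, a call lost without AKI 1 and under DESeq2. These values rest on 43 to 262 cells per library.

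In macrophage-like cells class II RNA was high in the control and in AKI and several-fold lower in CKD. Cd74 was 266 UMIs per 10000 in the control, 248 and 239 in AKI, and 48.6 and 60.3 in CKD. H2-Aa was 107, then 105 and 108, then 15.2 and 22.6. Ciita was 1.59, then 0.933 and 1.16, then 0.171 and 0.226. For these genes both CKD libraries lay below all other libraries, without overlap. For CKD against AKI (edgeR quasi-likelihood test), 8 of 9 members fell and 0 rose, against 34.9% of 11465 genes called in either direction and 17.8% lower, and the median member change was −2.40 against 0.02 over all genes. Cd74 fell by 2.40 on the log2 scale (SE 0.16, adjusted p = 0.000496), H2-Aa by 2.73 (SE 0.23, adjusted p = 0.00082) and Ciita by 2.65 (SE 0.21, adjusted p = 0.000719). H2-DMb2 fell by 1.5 and overlapped the control, and H2-Oa did not pass (−0.96, adjusted p = 0.0643).

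Much of this difference moved with osteoclast-like clusters, macrophages with Ctsk, Acp5 and Mmp9, which counted 40 cells in the control, 5 and 2 in AKI, and 812 and 151 in CKD. Their Cd74 was 19.0 UMIs per 10000 in CKD 1 and 16.5 in CKD 2, their H2-Aa 3.57 and 2.86, and their Ciita 0.0484 and 0.0393. All of these were above the T lymphocyte-like cells of the same library and far below the other macrophages. Of the 40 control cells, 32 carried a barcode shared with CKD 2. Without the osteoclast-like clusters, Cd74 was 270 in the control, 249 and 239 in AKI, and 104 and 151 in CKD, and H2-Ab1 was 115, 105 and 102, and 40.0 and 62.2, so the CKD libraries remained lowest. With those clusters left out 0 of 9 members passed, Cd74 changing by −1.12 (adjusted p = 0.0655, edgeR), H2-Aa by −1.26 (adjusted p = 0.0795) and Ciita by −1.24 (adjusted p = 0.069). CKD 1 macrophage-like cells were shallow, with a median of 2764 UMIs against 10601 and 10238 in AKI and 19159 in CKD 2, and their T lymphocyte markers summed to 3.81 against 0.107 to 0.837 elsewhere; the part of these in the result was not tested.

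**Figure D2:**
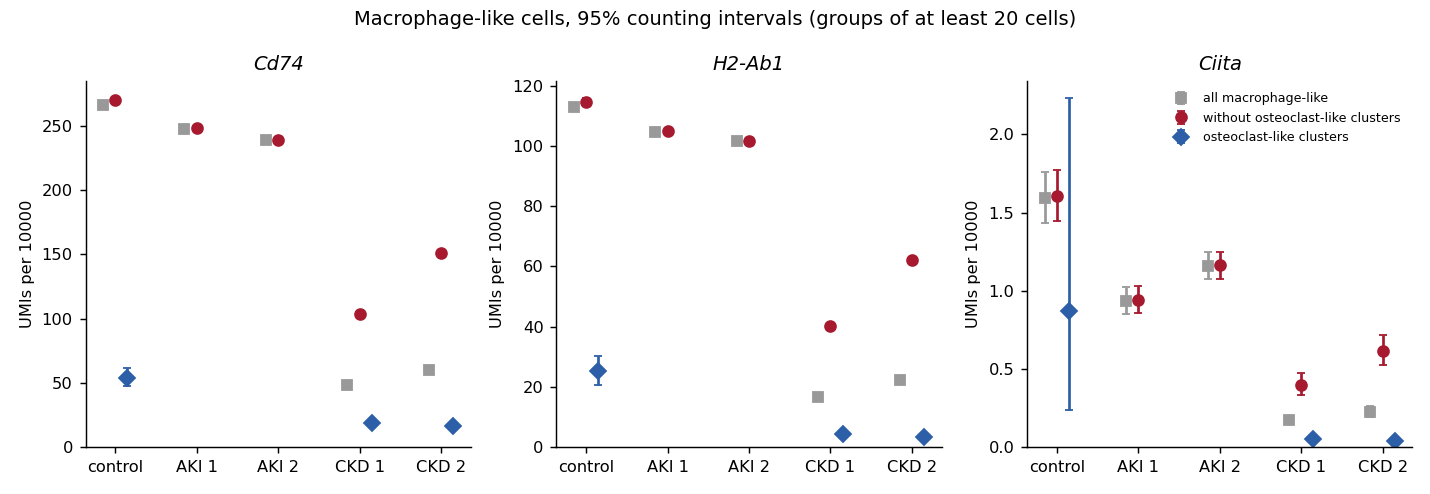
Cd74, H2-Ab1 and Ciita (UMIs per 10000, 95% Poisson intervals) by library in all macrophage-like cells (grey squares), in those outside the osteoclast-like clusters (red circles) and within these clusters (blue diamonds, drawn from 20 cells upward). The red circles of CKD lie at 104 and 151 for Cd74, below the 239 to 270 of the other libraries, and the blue diamonds of CKD lie at 19.0 and 16.5.

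The fall in macrophage-like cells was tested against the changes in other antigen-presenting cells. The CKD minus AKI change was lower in macrophage-like than in dendritic-like cells for 7 of 9 members, where 21.2% of genes differed and 11.5% were lower, with Cd74 at −2.15 (SE 0.10, adjusted p = 3.34e-05, edgeR interaction with library as a block). Against B lymphocyte-like cells it was lower for 8 of 9 members, where 6.1% of genes differed and 3.74% were lower, with H2-Aa at −2.81 (SE 0.21, adjusted p = 7.36e-38). The fit against B lymphocyte-like cells rests on 8 sums from 4 libraries, the smallest of 43 cells. So small a p-value is therefore no measure of certainty between mice. H2-Oa passed in neither interaction, at −0.40 and −1.18. Against control, 0 of 9 members passed for AKI in macrophage-like cells, where 4.51% of genes did, and Cd74 changed by 0.05 (SE 0.18, adjusted p = 0.898). Without CKD 1 or CKD 2, 4 members passed there.

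**Figure D3:**
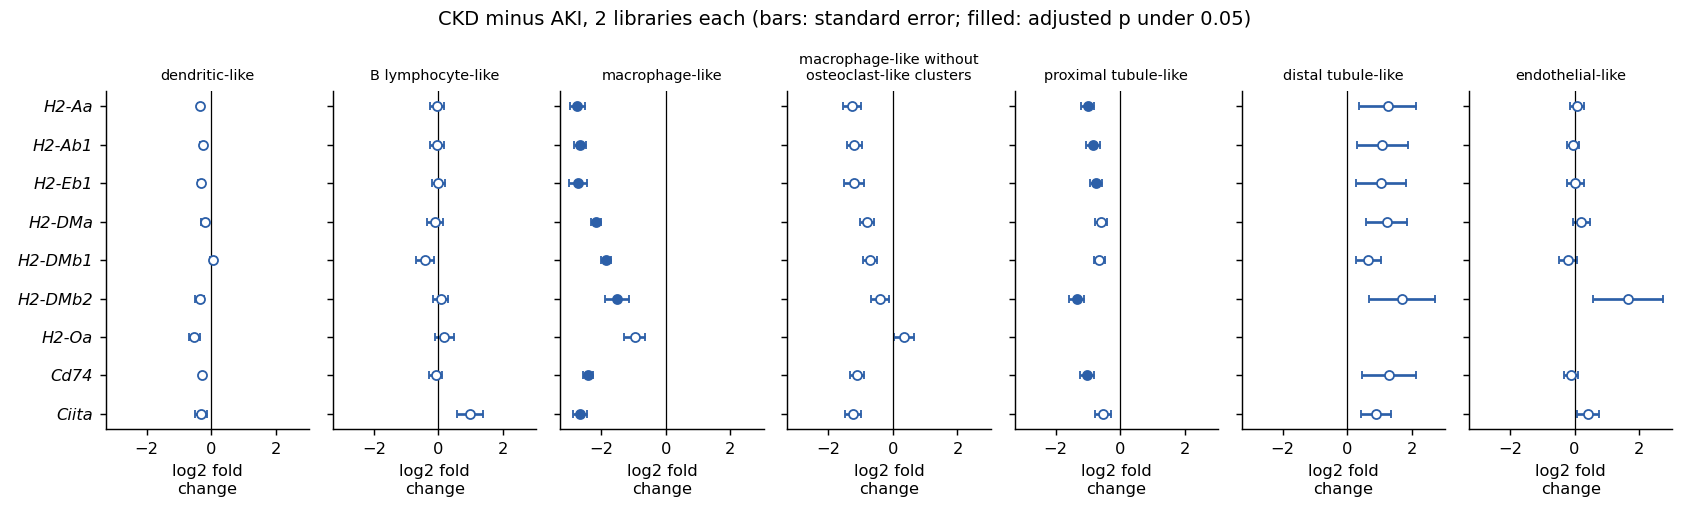
Log2 fold change of CKD minus AKI for each member in 7 sets of cells (2 libraries each, bars 1 standard error, filled symbols an edgeR adjusted p under 0.05). In macrophage-like cells 8 symbols are filled, from −2.73 for H2-Aa to −1.5 for H2-DMb2, none are filled once the osteoclast-like clusters are left out, and in proximal tubule-like cells 5 are filled, from −1.34 for H2-DMb2 to −0.76 for H2-Eb1.

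Other genes of the pathway were read from a list of 36, of which 34 could be tested in macrophage-like cells. For CKD against AKI 18 fell and 2 rose, where 34.9% of all genes were called and 17.8% fell, with a median of −0.72 against 0.02 over all genes. These counts include the 812 and 151 osteoclast-like cells of CKD, without which no member call was left. The largest falls were in March1 (−2.70), which encodes a ubiquitin ligase that removes class II from the surface, in the costimulatory ligand Cd86 (−2.53), in Cd83 (−2.46), which protects class II from that ligase, and in the class II coreceptor Cd4 (−2.44). The 2 that rose were Ifi30 (0.77), a thiol reductase of endosomes, and Spi1 (0.52), a myeloid transcription factor. Ifi30 was at 2.14 UMIs per 10000 in the control, 6.40 and 7.94 in AKI, and 13.6 and 15.4 in CKD. In AKI against control, where 4.51% of all genes were called, 7 of 35 rose, among them Lag3 (2.28), Cd40 (2.19), Ctsd (2.09) and Ifi30 (1.92), and 1 fell, Icosl (−1.04).

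Among the named classes outside the immune cells, proximal tubule-like cells showed the clearest rise of class II RNA. Cd74 was 1.24 UMIs per 10000 in the control (655 UMIs, interval 1.15 to 1.34), 25.2 and 32.0 in AKI, and 13.1 and 14.3 in CKD. H2-Ab1 was 0.596, then 9.81 and 13.3, then 6.12 and 6.35. Ciita was 0.0170 (9 UMIs, interval 0.00779 to 0.0323) in the control, 0.187 and 0.217 in AKI, and 0.106 and 0.184 in CKD. For all 3 genes the 4 AAI libraries lay above the control, and both AKI libraries lay above both CKD libraries, for Ciita by little. A rise of Cd74 was also seen outside the named classes. A shallow unnamed cluster led by Umod, Calb1 and Klk1 had 1.98 in the control, 18.4 and 34.5 in AKI, and 26.8 and 15.5 in CKD.

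Over T lymphocyte-like cells of the same library, Cd74 in proximal tubule-like cells stood 1.36-fold in the control, 7.55-fold and 8.26-fold in AKI, and 3.50-fold and 6.04-fold in CKD. Ciita stood 0.811-fold in the control, 10.8-fold and 11.4-fold in AKI, and 5.55-fold and 15.1-fold in CKD. The control was thus near the reference for both genes. Across all libraries (edgeR, library as a block) 7 members were higher than in T lymphocyte-like cells and 1 lower, where 76.6% of genes differed, 37.7% higher and 39% lower: H2-DMb2 by 3.83, H2-DMb1 by 3.49, Ciita by 2.69, H2-Ab1 by 2.06, Cd74 by 1.89, H2-Aa by 1.69 and H2-Eb1 by 1.30. H2-Oa was lower (−3.76), at 2 to 16 UMIs per library, and H2-DMa did not pass (0.63, adjusted p = 0.132).

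**Figure D4:**
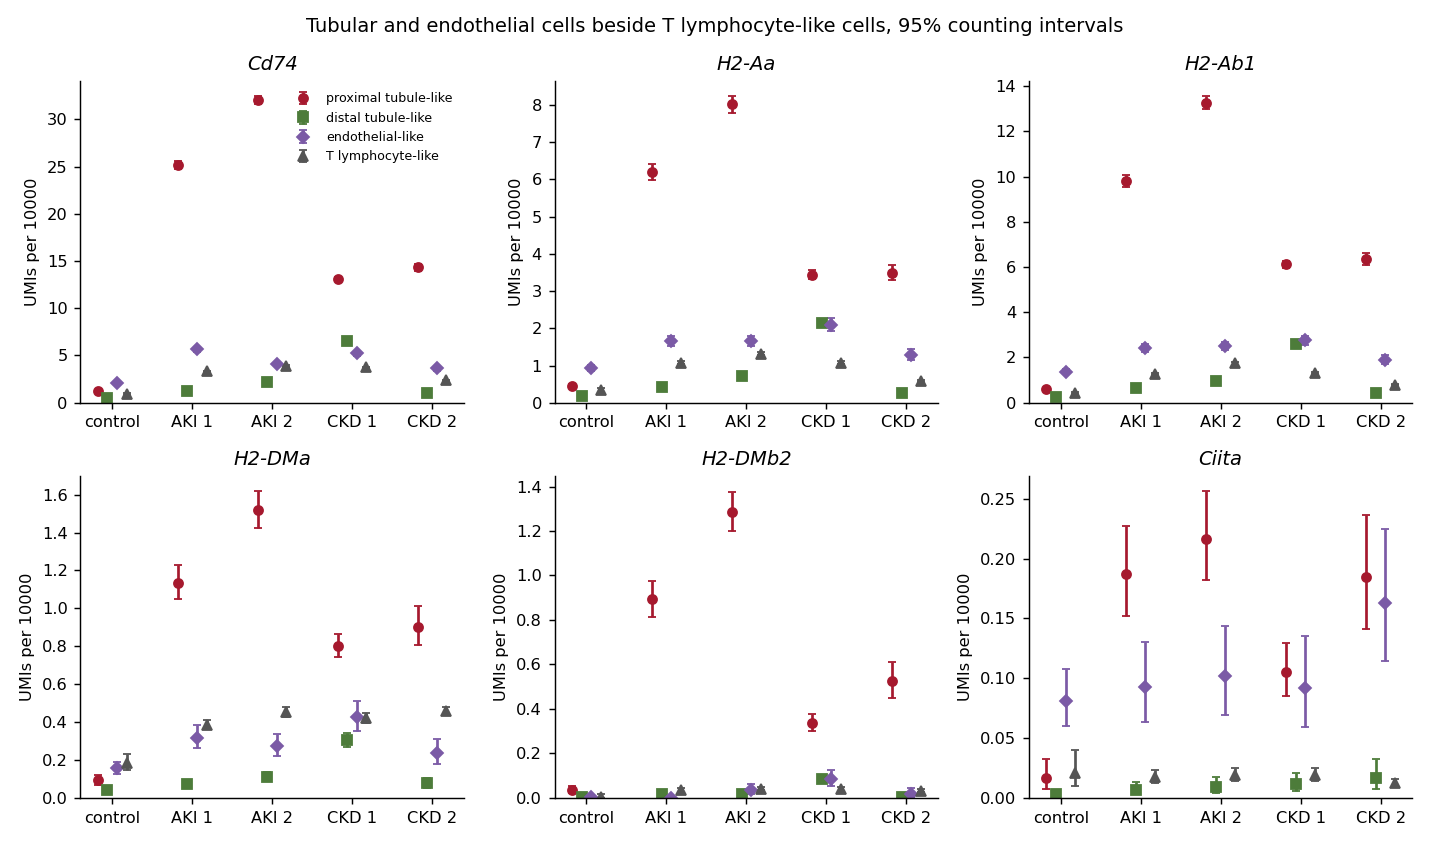
Levels of 6 members (UMIs per 10000, 95% Poisson intervals) by library in proximal tubule-like (red), distal tubule-like (green), endothelial-like (purple) and T lymphocyte-like cells (grey, the free RNA reference). Cd74 in proximal tubule-like cells is 1.24 in the control, 25.2 and 32.0 in AKI and 13.1 and 14.3 in CKD, and Ciita in endothelial-like cells is above the reference in every library.

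For AKI against control, added after the data were seen and resting on 1 control library, all 8 members tested in proximal tubule-like cells rose, against 21.1% of genes called and 12.2% higher, with a median of 3.81 against −0.01 over all genes (edgeR). Cd74 rose by 4.42 (SE 0.34, adjusted p = 7.11e-06), H2-DMb2 by 4.89 (SE 0.42, adjusted p = 1.1e-05), H2-Ab1 by 4.17, H2-Aa by 3.88, H2-DMa by 3.73, Ciita by 3.45 (SE 0.45, adjusted p = 0.000246), H2-Eb1 by 3.34 and H2-DMb1 by 3.14. Leaving out any of the AKI or CKD libraries kept the count at 8, but the control library and the control condition cannot be told apart. For CKD against AKI 5 of 8 fell, where 4.3% of genes were called and 1.72% fell: H2-DMb2 by 1.34 (SE 0.23, adjusted p = 0.00773), Cd74 by 1.02 (SE 0.23, adjusted p = 0.0269), H2-Aa by 1.00, H2-Ab1 by 0.85 and H2-Eb1 by 0.76. Ciita changed by −0.52 (adjusted p = 0.296). This count was 2 without AKI 1, 0 without AKI 2, 7 without CKD 1 and 8 without CKD 2, and 0 when doublets were kept.

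Markers of macrophages and T lymphocytes were also higher in these droplets in the AAI libraries, and those of other antigen-presenting cells differed in direction. The 7 macrophage markers, all detected in every library, summed to 0.278 UMIs per 10000 in the control, 1.46 and 1.08 in AKI, and 1.43 and 0.973 in CKD, beside 0.245, 1.03, 1.45, 0.718 and 0.241 in T lymphocyte-like cells. The 7 T lymphocyte markers summed to 0.174, then 0.693 and 0.680, then 3.19 and 1.57. The 6 B lymphocyte markers summed to 0.0681 in the control and 0.00791 to 0.0400 in the AAI libraries, with Ms4a1 and Pax5 at 0 in both AKI libraries. The 5 markers of type 2 dendritic cells summed to 0.407 in the control, 0.268 and 0.176 in AKI, and 0.329 and 0.378 in CKD, lower in AKI than in the control but above the 0.0233 to 0.0701 of T lymphocyte-like cells. Those of type 1 dendritic cells summed to 0.123 in the control and 0.163 to 0.218 in the AAI libraries, with T lymphocyte-like cells at 0.107 and 0.374 to 0.781. Those of mature dendritic cells summed to 0.0378 and 0.0678 to 0.260, below the 0.706 to 1.01 of T lymphocyte-like cells. The part of these markers in the rise of the members was not tested.

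Free RNA from a single source keeps its genes in a fixed ratio in every class of a library. Per UMI of the macrophage genes C1qa, C1qb and C1qc, the members numbered 5.53, 4.07, 3.74, 2.98 and 3.29 in macrophage-like cells and 11.7, 8.85, 7.46, 12.8 and 26.8 in T lymphocyte-like cells, in the order control, AKI 1, AKI 2, CKD 1 and CKD 2. In proximal tubule-like cells they numbered 13.6, 43.7, 70.4, 22.7 and 34.7. Proximal tubule-like over T lymphocyte-like cells, the ratio was 1.17 in the control, 4.94 and 9.44 in AKI, and 1.77 and 1.29 in CKD, so it was plainly above 1 in AKI and less so in CKD. With the myeloid gene Lyz2 as the denominator it was 2.76, 5.76, 9.25, 1.70 and 0.841. This was above 1 in the control too and below 1 in CKD 2. Per C1q UMI the members numbered 278 to 1481 in dendritic-like cells. The part of dendritic RNA in these ratios was not tested.

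**Figure D5:**
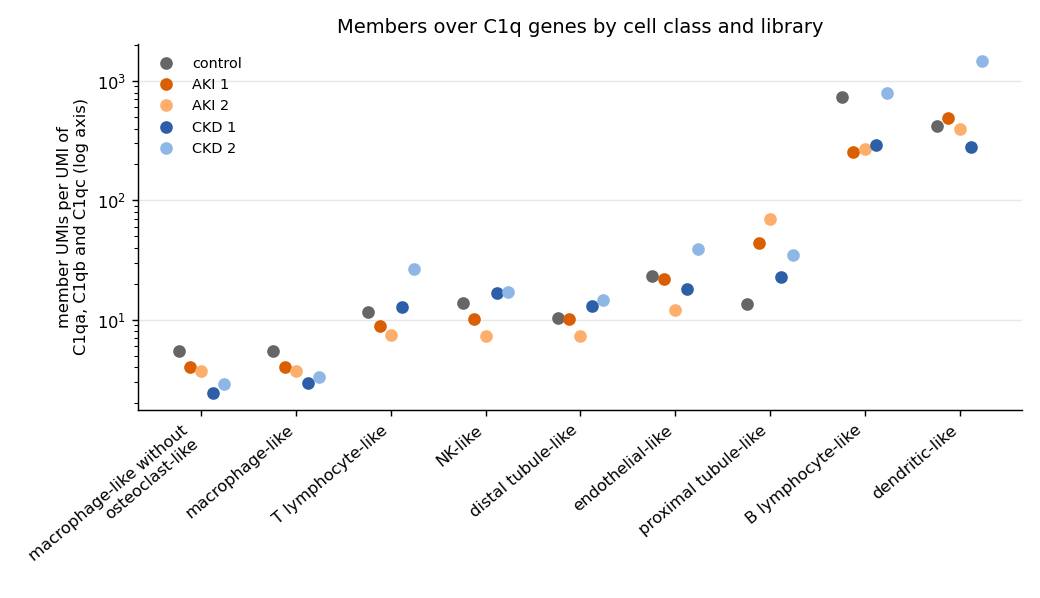
UMIs of the 9 members per UMI of C1qa, C1qb and C1qc (log axis) in 9 sets of cells, 1 point per library. Distal tubule-like cells lie at 7.34 to 14.5, within the span of T lymphocyte-like cells (7.46 to 26.8) but for AKI 2, whereas proximal tubule-like cells of AKI reach 43.7 and 70.4.

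Proximal tubule-like cells without a UMI of any of 9 immune genes (Ptprc, Laptm5, Tyrobp, Fcer1g, Cd52, C1qa, C1qb, Cd3e and Cd79a), a set chosen after the data were seen, numbered 830 in the control, 197 and 130 in AKI, and 419 and 135 in CKD. Their Cd74 was 0.842 UMIs per 10000 in the control, 27.2 and 31 in AKI, and 9.82 and 9.21 in CKD, and their Ciita 0.00949, 0.172, 0.198, 0.0975 and 0.0807, on 4, 21, 19, 25 and 6 UMIs. Cd74 in AKI was thus 27.2 and 31 in these cells against 25.2 and 32.0 in the whole class, and again all 8 members rose for AKI against control. In CKD these cells were lower than the whole class, with Cd74 at 9.82 and 9.21 against 13.1 and 14.3. Ciita in CKD was 0.0975 and 0.0807 against 0.106 and 0.184.

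The proximal tubule-like class joined 3 large clusters, and Cd74 was higher in the AAI libraries than in the control in each. In the cluster led by Ugt2b37 and Slc13a1, the deepest in every library, Cd74 was 1.80 UMIs per 10000 in the control, 28.0 and 33.7 in AKI, and 12.3 and 18 in CKD, while C1qa was 0.135, 0.373, 0.171, 0.181 and 0.360. In the cluster led by Miox and Akr1c21, Cd74 was 0.956, 16.8, 30.9, 21.9 and 8.85. In the one led by Snhg11 and Gm26917 it was 0.725, 8.39, 10.4, 4.03 and 2.64, with Ciita at 0.0179, 0.358, 0.248, 0.131 and 0.253. In CKD the Snhg11-led cluster was thus near the T lymphocyte-like level of the same libraries (3.75 and 2.37), while in AKI it was above it (3.33 and 3.88).

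Counted by cells, each thinned to 1000 UMIs, Cd74 was found in 8.77% (95% interval 7 to 10.8) of proximal tubule-like cells in the control, 68.2% (63.4 to 72.8) and 80.7% (76.6 to 84.5) in AKI, and 54.0% (51.6 to 56.5) and 38.9% (33.4 to 44.6) in CKD. Cells under 1000 UMIs, 0 to 153 per library, were left out. In T lymphocyte-like cells the shares were 7.1%, 26.0%, 30.1%, 28.2% and 15.6%, so the control was at background and the AAI libraries were above it. Had every cell held the mean level, 83.6% and 93.8% of AKI cells would have had a UMI. Without thinning, at median depths per library of 2476.5 to 5469 UMIs in the tubule cells and 3318 to 5651 in the reference, the shares were 20.3%, 82.9%, 93.8%, 78.3% and 66.1% against 19.5%, 63.4%, 70.3%, 59.3% and 53.1%.

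Ratios between members differed between proximal tubule-like and macrophage-like cells, and some of them also between proximal tubule-like cells and the free RNA reference. Cd74 per H2-Aa UMI was 2.76 in the control, 4.06 and 3.99 in AKI, and 3.82 and 4.09 in CKD, beyond the 2.22 to 3.20 of macrophage-like cells in the 4 AAI libraries. H2-DMb2 per H2-DMb1 UMI was 0.188, 0.560, 0.696, 0.338 and 0.455 in proximal tubule-like cells, against 0.138 to 0.585 in dendritic-like and at most 0.0683 in macrophage-like cells. In T lymphocyte-like cells Cd74 per H2-Aa was 2.65 in the control, 3.11 and 2.94 in AKI, and 3.48 and 4.06 in CKD, and H2-DMb2 per H2-DMb1 was 0.105, 0.405, 0.390, 0.334 and 0.853. In CKD, Cd74 per H2-Aa and H2-DMb2 per H2-DMb1 of proximal tubule-like cells were therefore close to or below those of the reference. The exception was a gap in Cd74 per H2-Aa in CKD 1. Other ratios in CKD did differ from the reference. H2-Ab1 per H2-Aa was 1.78 and 1.81 in proximal tubule-like cells against 1.24 and 1.35 in T lymphocyte-like cells. H2-Eb1 per H2-Aa was lower, at 0.907 and 0.921 against 1.04 and 1.19. The ratios were not tested.

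Of the 36 other pathway genes, 33 were tested in proximal tubule-like cells. In AKI 15 rose and 0 fell against control, where 21.1% of all genes were called and 12.2% rose, with a median of 0.91 against −0.01 over all genes. The interferon-induced factor Irf1 rose by 3.06 (adjusted p = 1.8e-05, edgeR), from 0.148 UMIs per 10000 to 1.56 and 1.11, and the signalling inhibitor Socs1 by 2.39. Cd4, a T lymphocyte and macrophage gene in mice, was also called, on 2 UMIs in the control and 16 and 18 in AKI. H2-Eb2, a class II beta chain gene, was called on 0 UMIs in the control and 7 and 31 in AKI, of which a fold cannot be given. Among the others the receptor gene Ifngr1 was at 0.140 in the control and 0.666 and 0.596 in AKI. Ifng itself, the inducer, lay at 0.0265, then 0.117 and 0.0917, beside 3.63 to 5.12 in T lymphocyte-like and 4.38 to 10.0 in NK-like cells. For CKD against AKI 1 of 29 rose, Spi1 (2.08), and 0 fell.

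Endothelial-like cells held little class II RNA beyond the background except for Ciita and H2-DMb1. Cd74 was 2.06 UMIs per 10000 in the control, 5.66 and 4.12 in AKI, and 5.25 and 3.65 in CKD, 1.06-fold to 2.25-fold the T lymphocyte-like level of the same library. Ciita was 0.0811, then 0.0926 and 0.102, then 0.0919 and 0.163, which is 3.86-fold to 13.4-fold the reference on 25 to 48 UMIs per library. Against T lymphocyte-like cells (edgeR, library as a block) 4 members were higher and 2 lower, where 73.8% of genes differed, 37% higher and 36.8% lower. Ciita was higher by 2.15 (SE 0.29, adjusted p = 0.000181), H2-DMb1 by 1.63 (SE 0.18, adjusted p = 6.15e-05), H2-Ab1 by 0.62 and H2-Aa by 0.42, while Cd74 did not pass (0.16, adjusted p = 0.361).

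Between CKD and AKI 0 of 8 members passed in endothelial-like cells, and 0% of all genes did (edgeR; 530 genes at an unadjusted p under 0.05). Against control 1 of 9 passed, where 4.55% of genes did, 3.39% higher: Cd74 rose by 1.30 (SE 0.28, adjusted p = 0.0481), without AKI 1 or AKI 2 0 passed, and without CKD 1 or CKD 2 6 did. T lymphocyte markers in these cells summed to 0.147 in the control and 1.68 to 3.25 in the AAI libraries, and their part in this rise was not tested. In cells without a UMI of the 9 immune genes Cd74 was 1.72 in the control, 4.07 and 3.85 in AKI, and 2.08 and 3.86 in CKD. Of the pathway list 4 of 31 rose against control, where 4.55% of all genes were called: Ifng (3.22), Irf1 (1.58), Irf8 (1.15) and Jak1 (0.79). The AKI minus control change was larger in proximal tubule-like than in endothelial-like cells for 7 of 9 members, where 5.23% of genes differed and 4.51% were higher, by 3.24 for Cd74 (SE 0.46, adjusted p = 0.00528, edgeR interaction) and by 3.25 for Ciita. That count was 5 without AKI 1, 0 without AKI 2 and 0 when doublets were kept.

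Distal tubule-like cells, which joined thick limb, distal convoluted tubule, connecting tubule and collecting duct clusters, lay below the reference for Cd74 in all libraries but CKD 1, whereas H2-DMb1 was above it in every library. Cd74 was 0.486 UMIs per 10000 in the control, 1.23 and 2.19 in AKI, and 6.5 and 1.02 in CKD, which is 0.531-fold, 0.368-fold, 0.566-fold, 1.73-fold and 0.431-fold the reference. Ciita rested on 8 to 10 UMIs per library and stood at 0.00316 to 0.0166. In CKD 1 the distal tubule-like cells had a median of 2861 UMIs against 10540 to 14800.5 elsewhere, their T lymphocyte markers summed to 3.87 against 0.220 to 1.28, and their macrophage markers to 1.29 against 0.151 to 0.837. Those without a UMI of the 9 immune genes had Cd74 at 1.12 in CKD 1, with Ciita at 0 UMIs in 355 cells, against 1.46 and 1.97 in AKI.

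Against T lymphocyte-like cells 7 of the members were lower in distal tubule-like cells and H2-DMb1 was higher by 0.67 (SE 0.22, adjusted p = 0.0258, edgeR), where 78.5% of genes differed, 40% higher and 38.5% lower. This order depends on the scale, since per cell, rather than per UMI, the deep distal tubule-like cells were higher for Cd74 by 0.64 and did not pass for it. For CKD against AKI 0 of 8 members passed, where 0.0076% of genes did, and Cd74 changed by 1.30 (SE 0.84, adjusted p = 0.608) with CKD 1 and by −0.74 without it. Without CKD 2, 8 members passed. Against control, AKI gave 0 of 9, where 5.4% of genes did, and Cd74 changed by 1.72 (SE 1.07, adjusted p = 0.394). The AKI minus control change in proximal tubule-like cells exceeded that in distal tubule-like cells by 2.79 for Cd74 (SE 1.01, adjusted p = 0.195) and for 0 of 9 members by the test, where 0.974% of genes differed, although 5 members reached an unadjusted p under 0.05. DESeq2 also called 0. Without CKD 1 or CKD 2, 7 members passed.

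Over 40 sums of 8 classes in 5 libraries, the 10 genes whose log2 level followed the mean of H2-Aa, H2-Ab1, H2-Eb1 and Cd74 most closely included Ly86 (Pearson r 0.952), Wfdc17 (0.949), Cybb (0.939), Bmp2k (0.931), Pld4 (0.924), Cd180 (0.923), Themis2 (0.920) and March1 (0.919). Ly86 and Cd180 encode partners in a surface receptor of B lymphocytes and myeloid cells, and Cybb a subunit of the phagocyte oxidase. Among the other members r was 0.982 for H2-DMa, 0.939 for H2-DMb1, 0.931 for Ciita, 0.814 for H2-DMb2 and 0.693 for H2-Oa. These sums share libraries and depth, and the correlations are descriptions across cell classes.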

How the data were processed

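Whole-number UMI counts per gene and barcode were used as deposited by the authors for 1 control, 2 AKI and 2 CKD kidney libraries. The submitters' processing notes name Cell Ranger 7.2.0, STAR and GRCm39, whereas the file headers of the AKI and CKD matrices name another Cell Ranger version and the control's gene list names mm10. The counts are not normalized, and the study's filters and CellBender are not part of them, so free RNA remains in every value. The labels do not say whether the libraries of a phase came from separate mice, so p-values measure only the spread between libraries. Total counts per library before filtering ran from 90028670 to 121316769 UMIs.

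Barcodes were kept where mitochondrial UMIs made up no more than 30% and 200 genes or more were detected, and the highest scores of an own doublet simulation were removed at 0.8% per 1000 cells. After log-normalization, 3000 variable genes (members left out) gave 40 principal components, a rewritten Harmony removed library differences, and a graph of 15 neighbours was clustered by Leiden at resolution 1.5 into 53 clusters. A name needed at least 3 markers in 10% of cells at 2-fold, a scoring rule set only once the clusters were known. UMIs were summed per library and class (at least 20 cells) and tested in R 4.3.3 by the quasi-likelihood method of edgeR 4.0.16 (TMM, filterByExpr, Benjamini-Hochberg over all genes tested, adjusted p under 0.05). DESeq2 1.42.0 was an alternative. Exact permutation of 2 against 2 libraries cannot go below p = 0.333, so no such test is given. Levels are UMIs per 10000 UMIs of the class. Python 3.11.15, scikit-learn 1.9.0, igraph 0.11.9 and leidenalg 0.10.2 were used, and the test was tested on simulated data.

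The members, the marker lists and the list of 36 pathway genes were chosen with earlier results of these data known. Genes named are the 9 members, at most 4 rises and 4 falls of the pathway list and the 10 genes most like the members, with Ifngr1, Ifng and the markers given beside them chosen after their values were seen. Promoter sequences and positions are RefSeq's for GRCm38.p6, a build that need not be the authors', and were matched by symbol. Promoters of H2-Ab1, Cd74 and Ciita were not used here. Alternatives covered the tool, the filter, TMM factors, doublets, a mitochondrial limit of 15%, the correction by library, the reference class, thinning, each library left out and, added later, the sets of cells named in the report. A few genes that these rules select are not reported here.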

Additional observations from a re-analysis of the deposited data

Results flagged for a closer look

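Results are given here where the change between phases differed between cell classes by an edgeR interaction test at an adjusted p under 0.05, and all of them are log2 differences of 2 changes.

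The CKD minus AKI change was lower in macrophage-like than in dendritic-like cells by −2.44 for H2-Aa, −2.41 for H2-Ab1, −2.46 for H2-Eb1, −1.98 for H2-DMa, −1.93 for H2-DMb1, −2.15 for Cd74 and −2.34 for Ciita. Against B lymphocyte-like cells it was lower by −2.81 for H2-Aa, −2.73 for H2-Ab1, −2.85 for H2-Eb1, −2.13 for H2-DMa, −1.52 for H2-DMb1, −1.70 for H2-DMb2, −2.43 for Cd74 and −3.67 for Ciita. The macrophage-like cells of CKD included 812 and 151 osteoclast-like cells, and the interaction was not fitted without them.

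The AKI minus control change was higher in proximal tubule-like than in endothelial-like cells by 3.09 for H2-Aa, 3.38 for H2-Ab1, 2.38 for H2-Eb1, 2.85 for H2-DMa, 2.68 for H2-DMb1, 3.24 for Cd74 and 3.25 for Ciita. These rest on 1 control library, and without AKI 2 or with doublets kept 0 members passed.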

How the results depend on the processing

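Of 1363 refits of 106 values, 1206 kept direction and side of the threshold, 121 lost the call, 16 gained it and 20 changed sign; the cause was not tested. The values below are members called, the main count in brackets. Leaving out 1 library at a time gave, for CKD against AKI, 0 to 6 (0) in dendritic-like, 0 to 0 (0) in B lymphocyte-like, 7 to 9 (8) in macrophage-like, 0 to 0 (0) in endothelial-like, 0 to 8 (5) in proximal tubule-like and 0 to 8 (0) in distal tubule-like cells. Against T lymphocyte-like cells it gave 9 to 9, 9 to 9, 8 to 8, 5 to 6, 8 to 9 and 4 to 8 in the same order. For AKI against control it gave 0 to 6 (4), 0 to 1 (1), 0 to 4 (0), 0 to 6 (1), 8 to 8 (8) and 0 to 7 (0). The differences between classes gave 7 to 9 (macrophage-like against dendritic-like), 7 to 9 (against B lymphocyte-like), 0 to 7 (proximal against distal) and 0 to 8 (proximal against endothelial).

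With no filter on low counts, 2 members passed in dendritic-like (0) and 8 in distal tubule-like cells (0) for CKD against AKI, 4 for the proximal against distal difference (0), and 2 in macrophage-like (0), 5 in endothelial-like (1) and 7 in distal tubule-like cells (0) for AKI against control. Without osteoclast-like clusters 0 passed for CKD against AKI in macrophage-like cells (8). The count of 5 in proximal tubule-like cells for CKD against AKI became 0 with doublets kept, 1 at a mitochondrial limit of 15% and 2 with no correction by library. Against an NK-like reference 2 members differed in endothelial-like cells (6). In distal tubule-like cells the 8 members that differed from T lymphocyte-like cells became 3 without TMM factors, 3 with doublets kept, 4 with no correction and 2 per cell. Without cells holding an immune UMI, 6 passed for the proximal against distal difference, and 3 in endothelial-like and 5 in distal tubule-like cells for AKI against control. With doublets kept, 0 passed for the proximal against endothelial difference (7). For AKI against control, dendritic-like cells gave 2 by DESeq2, 2 without TMM factors and 0 in the named subclusters (4), B lymphocyte-like cells gave 0 by DESeq2, without TMM factors, with doublets kept and at 15% (1), macrophage-like cells gave 3 with the unnamed clusters nearest to them (0), and endothelial-like cells gave 3 by DESeq2, 0 without TMM factors, 0 with doublets kept, 4 at 15% and 4 with no correction (1).

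The share of cells with a Cd74 UMI without thinning was 20.3%, 82.9%, 93.8%, 78.3% and 66.1% in proximal tubule-like and 19.5%, 63.4%, 70.3%, 59.3% and 53.1% in T lymphocyte-like cells. At 2000 UMIs it was 78.1% and 86.9% in AKI and 65.8% in CKD 1 in proximal tubule-like cells, and 12.9%, 42.1%, 49.1%, 37.7% and 25.7% in T lymphocyte-like cells. With doublets kept it was 63.6% in CKD 1 in proximal tubule-like cells, and 32.0% in AKI 2 and 35.2% in CKD 1 in T lymphocyte-like cells. The proximal over T lymphocyte ratio of members to immune UMIs was 2.76 in the control, 5.76 in AKI 1 and 0.841 in CKD 2 with Lyz2, and 0.98 in the control, 30.8 and 48.0 in AKI and 6.00 in CKD 1 with Cd79a and Cd79b.

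Values that changed sign were the CKD minus AKI change of Cd74 in B lymphocyte-like cells (0.0697 without TMM factors, 0.0602 without AKI 1, 0.0502 without CKD 1, −0.263 without CKD 2), in endothelial-like cells (0.15 without AKI 1, 0.11 without CKD 2) and in distal tubule-like cells (−0.74 without CKD 1, 2.10 without CKD 2, −0.88 without immune UMIs). Cd74 in endothelial-like over T lymphocyte-like cells was −0.28 without immune UMIs. Per cell, distal tubule-like over T lymphocyte-like cells gave 0.71 for H2-Aa, 0.83 for H2-Ab1, 0.70 for H2-Eb1, 0.64 for Cd74 and 0.28 for Ciita. For AKI against control the named dendritic subclusters gave −0.0178 for H2-Aa and −0.12 for H2-Ab1, and Cd74 in macrophage-like cells gave −0.13 without TMM factors, −0.25 with doublets kept, −0.37 at 15%, −0.000278 without AKI 1, 0.0853 without AKI 2 and −0.19 with unnamed clusters.

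With the replicate number as a block, 0, 0, 8, 0, 7 and 0 members passed for CKD against AKI in the 6 classes. Over genes, the difference between the 2 AKI libraries correlated with that between the 2 CKD libraries at 0.0341 to 0.154 in the 6 classes. A single such comparison per class cannot show whether same-numbered libraries share more than a number. Shallow sums limit Ciita, H2-DMb2 and H2-Oa outside the immune classes.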

Other observations

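Among the clusters that stayed unnamed, Cd74 also varied by library. A cluster led by Fn1, Lyz2 and Chil3 held 142 UMIs per 10000 in the control, 128 and 124 in AKI, and 99.0 and 99.4 in CKD. A shallow cluster led by Umod, Calb1 and Klk1 held 1.98 in the control, 18.4 and 34.5 in AKI, and 26.8 and 15.5 in CKD. Fibroblast-like cells held 1.03, 1.93, 5.38, 16.4 and 1.99 in control, AKI 1, AKI 2, CKD 1 and CKD 2. Plasmacytoid dendritic-like cells, which make type I interferon, held 53.4 in the control, 113 in AKI 1, and 79.0 and 67.8 in CKD, below the type 1 dendritic-like cells of the same library.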
